A study of Homo sapiens with 4 samples.

Results

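Transforming growth factor-beta (TGF-beta) genes were followed in RCC4 cells after silencing of PML, the scaffold protein of PML nuclear bodies. The 10 genes were taken by symbol from the table of counts, which lists 59050 genes, by a rule that uses their symbols and no measured value, although earlier results of these data were known when they were chosen. They are the ligands TGFB1, TGFB2 and TGFB3, the receptors TGFBR1, TGFBR2 and TGFBR3, the signal transducers SMAD2, SMAD3 and SMAD4, and the inhibitor SMAD7. RCC4 is an established line of clear cell renal cell carcinoma (ccRCC). Bulk populations, not single clones, carried a doxycycline-inducible hairpin against PML (shPML) or a scrambled hairpin (shCtrl), delivered with lentiviral vectors and selected with puromycin. Doxycycline was given to both groups at 100 ng/ml for 96 h, so the controls share the drug, the vector and the selection. Only 1 hairpin against PML was sequenced, so an effect of silencing PML cannot be told apart from another effect of that hairpin. The experiment was done 2 times with independent infections, which gave 2 libraries of each group, and the replicate numbers of the labels were read as these experiments. The deposited record was corrected after submission for an exchange of the labels of 2 samples, and the corrected labels were used.

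TGF-beta ligands are secreted in a latent form, held inactive by their own propeptide and by latent TGF-beta-binding proteins, and are released by integrins and proteases. Active ligand binds the type II receptor TGFBR2, which recruits and phosphorylates the type I receptor TGFBR1. TGFBR1 phosphorylates SMAD2 and SMAD3, which enter the nucleus with SMAD4 and regulate genes, SMAD7 among them, and SMAD7 in turn inhibits the receptor. In the kidney the pathway is best known for fibrosis, and in epithelial cells for growth arrest and for epithelial-to-mesenchymal transition. A cytoplasmic form of PML is known as a modulator of the pathway that acts with the receptor and with SARA (ZFYVE9), and TGIF1 is known to interfere with it.

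The libraries held between 27781193 and 69870617 counted reads. PML, the target of the hairpin, was at 93.1 and 136 CPM (counts scaled to library size, here with TMM factors) in shCtrl replicates 1 and 2 and at 54.9 and 87.6 in shPML replicates 1 and 2. It was lower in shPML within each experiment, with a log2 fold change of -0.70 (SE 0.11, edgeR adjusted p = 4.2e-07, n = 2 per group). All 9 markers of the ccRCC line were detected in every library, with PAX8 at 302 to 427 CPM. shPML replicate 2 stood apart from the other libraries. The summed level of 20 monocyte and macrophage markers was 402 CPM in it and between 7.08 and 9.85 CPM in the others. All 20 markers were highest there, which is partly set by their choice after the counts were seen. MSR1 was nearly level, at 4.55 CPM in shPML replicate 2, 4.52 in shPML replicate 1, and 4.06 and 2.86 in shCtrl replicates 1 and 2. LYZ, the lysozyme of myeloid cells, was at 85.4 CPM in this library and at 0.0739 CPM or less in the others, while the T cell marker CD3E was at 0 in every library. In such bulk libraries the presence of more cells of a type and more RNA per cell cannot be told apart. The log2 ratio within experiment 1, which does not contain that library, is therefore also given for the 10 genes and for each named gene of the lists, in the text or in the plot of called pathway genes by experiment.

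**Figure D1:**
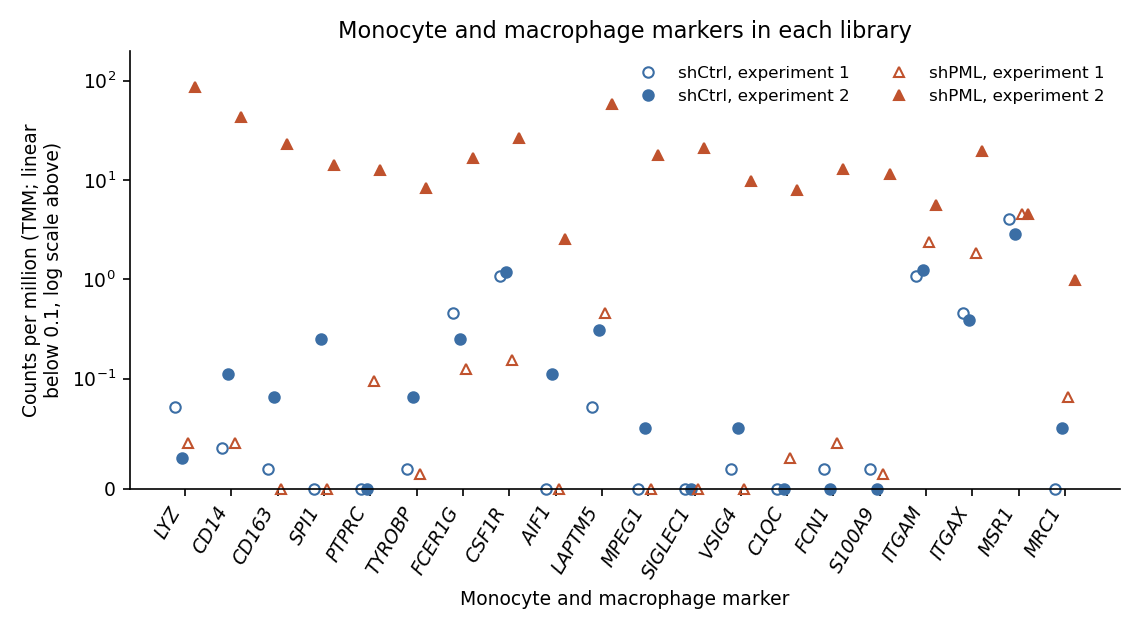
Level of each of the 20 monocyte and macrophage markers in CPM, with a linear scale below 0.1 CPM and a log scale above it, in the shCtrl (circles) and shPML (triangles) libraries of experiment 1 (open) and experiment 2 (filled). LYZ reaches 85.4 CPM in shPML of experiment 2 and stays at or below 0.0739 CPM in the other 3 libraries.

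Between shPML and shCtrl, 5 of the 10 genes passed both thresholds, which were 0.05 for the adjusted p and 0.5 in either direction for the log2 fold change. TGFB2, TGFB3, TGFBR3 and SMAD7 rose, and TGFBR1 fell. Over the 16516 genes tested, 8.57% were called higher and 10.5% lower by the same test. TGFB2 was kept by the filter on low counts only through its shPML libraries, so its presence among the higher genes is partly set by that filter. The log2 fold change was above 0 for 9 of the 10 genes, with a median of 0.28, against a median of 0.00 over all genes tested, of which 8315 were above 0 and 8201 below. These calls rest on the comparison within experiments, with the experiment as a block and 1 residual degree of freedom. Without the block, edgeR called 0 of the 10 genes, with 5 of them at an unadjusted p under 0.05, and called 0.0787% of all genes higher and 0.333% lower. DESeq2 with the block called TGFBR3 and SMAD7 higher and TGFBR1 lower, beside 6.71% of all genes higher and 8.39% lower. In experiment 1 alone, the 5 called genes had log2 ratios beyond 0.5 in the same directions. The calls rest partly on these same ratios, so this is not a separate test.

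**Figure D2:**
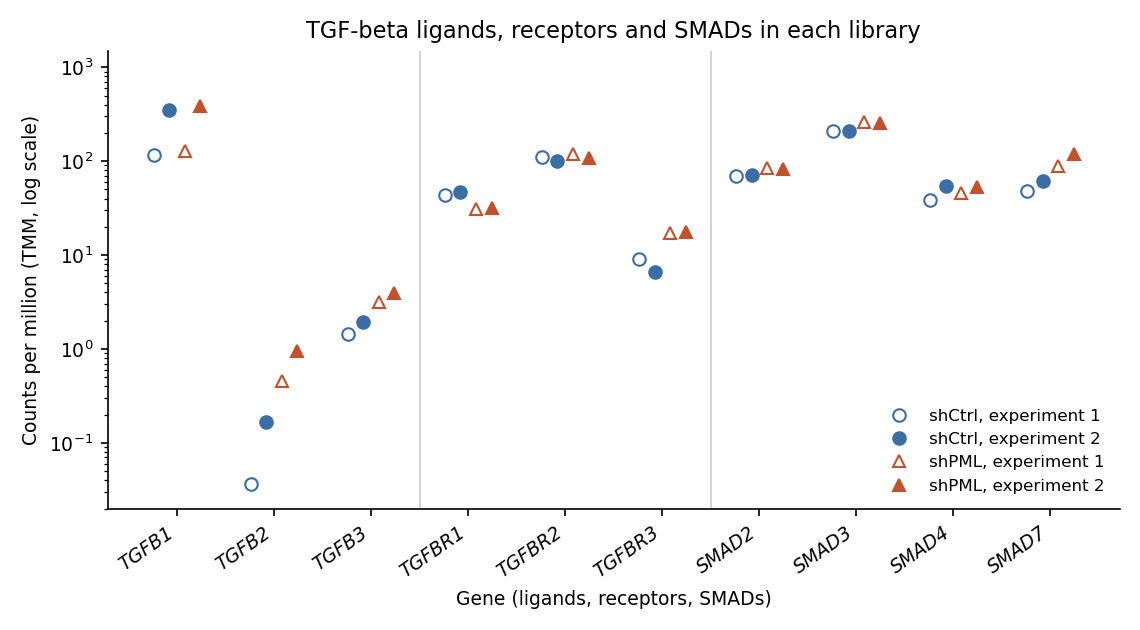
Level of each ligand, receptor and SMAD gene in CPM on a log scale, in the shCtrl (circles) and shPML (triangles) libraries of experiment 1 (open) and experiment 2 (filled). TGFB1 lies at 117 and 129 CPM in experiment 1 and at 353 and 388 CPM in experiment 2, while TGFBR3 lies at 6.61 and 9.07 CPM in shCtrl and at 17.2 and 17.7 CPM in shPML.

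The genes differed widely in abundance, which can be compared between genes only per length of transcript. In CPM per kilobase of annotated exon, the shCtrl libraries held 84.8 of TGFB1 on average, 27.9 of SMAD3, 22.4 of TGFBR2, 12.1 of SMAD7 and 6.89 of TGFBR1. SMAD4 followed at 5.22, SMAD2 at 1.97, TGFBR3 at 1.14, TGFB3 at 0.608 and TGFB2 at 0.0171. The ranges of neighbours in this order did not overlap between the shCtrl libraries. The annotated exons of SMAD2 sum to 35403 bases, against 2769 to 8906 for the other 9 genes, which lowers its value on this scale. TGFB1 was the most abundant of the 3 ligands per kilobase in every library.

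TGFB1 (chr19:41330323-41353911, minus strand, GRCh38) encodes the best studied TGF-beta ligand. Its level was 117 and 353 CPM in shCtrl replicates 1 and 2 and 129 and 388 CPM in shPML replicates 1 and 2. The groups overlapped, and the libraries were ordered by experiment and not by hairpin. The log2 fold change after PML silencing was 0.14 (SE 0.10, edgeR adjusted p = 0.30), with 0.14 in each experiment. Between experiments, in contrast, TGFB1 was higher in experiment 2 by 1.59 on the log2 scale (SE 0.10, edgeR adjusted p = 4.6e-20). It was the only one of the 10 genes called between experiments, where 8.93% of all genes were called higher and 4.53% lower in experiment 2. The difference was also present between the shCtrl libraries, where the monocyte and macrophage markers summed to 7.43 and 7.08 CPM. The cause of the difference between experiments was not tested.

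TGFB2 (chr1:218345336-218444619, plus strand) encodes a ligand that depends on the co-receptor TGFBR3 for efficient binding to TGFBR2. It was close to the limit of detection, with 2 and 6 counts in shCtrl replicates 1 and 2 and 33 and 26 counts in shPML replicates 1 and 2. In CPM these were 0.0370 and 0.167 against 0.460 and 0.946, and each shPML library was above both shCtrl libraries. The log2 fold change was 2.92 (SE 0.91). Its p is not given, since the filter on low counts kept the gene only through its shPML libraries. The ratio of shPML to shCtrl was 12.5 in experiment 1, with a 95% counting interval from 3.19 to 107, and 5.67 in experiment 2, from 2.28 to 16.9. Such exact binomial intervals cover counting error only. DESeq2 gave no adjusted p for this gene. TGFB2 shares 1371 exonic bases with TGFB2-OT1 on the same strand and 129 with TGFB2-AS1 on the other, and both were at 0 counts in every library.

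TGFB3 (chr14:75958202-75981191, minus strand) encodes the remaining ligand. It had 79 and 69 counts in shCtrl replicates 1 and 2, or 1.46 and 1.92 CPM, and 226 and 109 counts in shPML replicates 1 and 2, or 3.15 and 3.96 CPM. The groups did not overlap, and means were 1.69 ± 0.323 CPM in shCtrl and 3.56 ± 0.574 CPM in shPML (SD, n = 2). The log2 fold change was 1.08 (SE 0.35, edgeR adjusted p = 0.0133), and the DESeq2 adjusted p with the block was 0.0742. The ratio was 2.16 in experiment 1 (95% counting interval 1.67 to 2.83) and 2.07 in experiment 2 (1.52 to 2.84). The rise was thus as large without the library that stood apart. TGFB3 shares 163 exonic bases with TGFB3-AS1 on the other strand, which had 0 to 3 counts.

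The bases upstream of the ligand genes are shown as a description of the 3 ligands, of which TGFB2 and TGFB3 were called and TGFB1 was not. The difference between the ligands was not tested, and the calls of TGFB2 and TGFB3 were not made by DESeq2. RefSeq windows (GRCh38.p14) were found for 10 of the 10 genes, 26 windows in all, and the 200 bases before the start site were searched on both strands. Of TGFB3, with 2 RefSeq start sites, the window nearer to the counted gene is printed. Both start sites lie upstream of the annotated exons used for counting, whose outermost base is 75981191. Capitals mark TATAAA (the TATA box), TGACGT (the core of the cAMP response element, read as ACGTCA on the other strand), GTCTG (a SMAD-binding element, CAGAC on the other strand) and GGGCGG (the SP1 box, CCGCCC on the other strand), and none of these matches overlapped another.
TGFB1, chr19:41353923-41354122, minus strand: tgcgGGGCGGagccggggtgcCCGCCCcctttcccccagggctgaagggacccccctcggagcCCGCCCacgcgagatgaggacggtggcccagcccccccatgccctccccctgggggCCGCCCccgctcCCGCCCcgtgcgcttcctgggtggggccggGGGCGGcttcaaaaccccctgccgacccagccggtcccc
TGFB2, chr1:218345136-218345335, plus strand: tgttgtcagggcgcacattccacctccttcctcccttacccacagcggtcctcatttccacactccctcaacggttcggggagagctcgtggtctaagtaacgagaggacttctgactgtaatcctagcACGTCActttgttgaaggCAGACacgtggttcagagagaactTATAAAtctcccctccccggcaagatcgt
TGFB3, chr14:75981996-75982195, minus strand: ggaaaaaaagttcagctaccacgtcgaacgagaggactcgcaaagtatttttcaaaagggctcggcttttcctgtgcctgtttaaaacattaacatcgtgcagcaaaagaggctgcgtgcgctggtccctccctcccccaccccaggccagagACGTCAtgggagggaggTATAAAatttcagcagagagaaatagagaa
TGFB2 and TGFB3 each held TATAAA, first base 29 and 30 bases before the start, and ACGTCA, 71 and 47 bases before it. TGFB1 held neither, and held 6 SP1 boxes, of which TGFB2 and this TGFB3 window held 0. Over 35116 RefSeq windows of the same length, 8.59% held the TATA box, 6.33% the cAMP response element core and 0.470% both. The SMAD-binding element was found in 31.2% of windows and the SP1 box in 40.1%. TGFB2 held 1 SMAD-binding element, 53 bases before its start, and the TGFB3 window that is not printed also held 1, 133 bases before its start. SP1 boxes were also found in windows of TGFBR3, which rose, TGFBR1, which fell, and TGFBR2, SMAD2, SMAD3 and SMAD4, which were not called. The AP-1 site TGAGTCA, searched on both strands like the others, was in 3.54% of windows and in 1 of 5 windows of SMAD3. Among the other genes, SMAD7 held TATAAA in 1 of its 3 windows and GTCTG in 2 of them. GTCTG was also in 3 of 8 windows of TGFBR1, which fell, and in 2 of 5 windows of SMAD3, which was not called, while TGFBR2, TGFBR3, SMAD2 and SMAD4 held neither motif. A match of letters is not a bound site, and no binding data were analysed here.

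TGFBR1 (chr9:99105111-99154192, plus strand) encodes the type I receptor kinase that phosphorylates SMAD2 and SMAD3. It was at 43.9 and 46.9 CPM in shCtrl replicates 1 and 2 and at 30.8 and 31.4 CPM in shPML replicates 1 and 2. Both shPML libraries were below both shCtrl libraries, and replicates of each group lay close together, at 45.4 ± 2.10 CPM and 31.1 ± 0.461 CPM (SD, n = 2). TGFBR1 fell by 0.54 on the log2 scale (SE 0.12, edgeR adjusted p = 0.00025), which is just past the fold threshold. The log2 ratio was -0.51 in experiment 1 and -0.58 in experiment 2. It was the only gene of the 10 that fell.

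TGFBR2 (chr3:30606502-30694142, plus strand), the type II receptor that binds ligand, was at 112 and 99.4 CPM in shCtrl replicates 1 and 2 and at 119 and 107 CPM in shPML replicates 1 and 2. The groups overlapped, and the log2 fold change was 0.10 (SE 0.10, edgeR adjusted p = 0.52), with 0.09 in experiment 1 and 0.11 in experiment 2. It was thus not called, while TGFBR1 was, and the difference between the changes of these receptors was not tested.

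TGFBR3 (chr1:91680343-91906335, minus strand) encodes betaglycan, a co-receptor that presents ligand, TGFB2 above all, to TGFBR2. It was at 9.07 and 6.61 CPM in shCtrl replicates 1 and 2 and at 17.2 and 17.7 CPM in shPML replicates 1 and 2. The shPML libraries were nearly equal and well above the controls, with means of 17.5 ± 0.369 CPM against 7.84 ± 1.74 CPM (SD, n = 2). TGFBR3 rose by 1.16 on the log2 scale (SE 0.16, edgeR adjusted p = 3.9e-08). The log2 ratio was 0.93 in experiment 1 and 1.43 in experiment 2. The shCtrl libraries lay further apart than the shPML libraries.

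**Figure D3:**
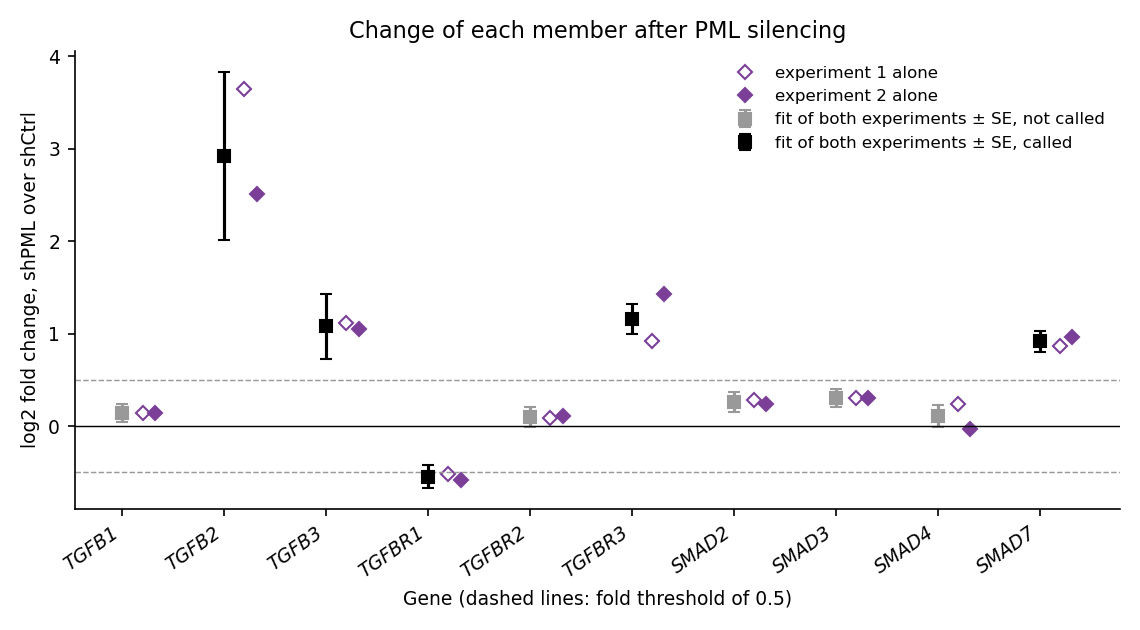
log2 fold change of shPML over shCtrl for each gene, as the fit of both experiments with its standard error (squares, black where called and grey where not) and as the ratio within experiment 1 (open diamonds) or experiment 2 (filled diamonds). Dashed lines mark the threshold of 0.5, which TGFB2, TGFB3, TGFBR3 and SMAD7 pass upwards and TGFBR1 downwards, at -0.54.

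SMAD2 (chr18:47808957-47931146, minus strand), a receptor-activated SMAD, was at 68.9 and 70.7 CPM in shCtrl replicates 1 and 2 and at 83.8 and 83.3 CPM in shPML replicates 1 and 2. The groups did not overlap, but the log2 fold change was only 0.26 (SE 0.11, edgeR adjusted p = 0.0693), with 0.28 in experiment 1 and 0.24 in experiment 2. SMAD3 (chr15:67065602-67195169, plus strand), the receptor-activated SMAD that binds DNA directly, was at 209 and 207 CPM in shCtrl replicates 1 and 2 and at 258 and 257 CPM in shPML replicates 1 and 2. Its log2 fold change of 0.31 (SE 0.10, edgeR adjusted p = 0.0118) passed the p threshold and not the fold threshold, and it was 0.31 in each experiment. For these SMADs the libraries of a group lay close together, and the groups did not overlap.

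SMAD4 (chr18:51029614-51085045, plus strand), the shared partner of the receptor-activated SMADs, was at 38.7 and 54.3 CPM in shCtrl replicates 1 and 2 and at 45.8 and 53.2 CPM in shPML replicates 1 and 2. The groups overlapped, and the log2 fold change was 0.11 (SE 0.12, edgeR adjusted p = 0.55), with 0.24 in experiment 1 and -0.03 in experiment 2. It shares 814 exonic bases with AC091551.1 on the same strand, which had 11 to 25 counts.

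SMAD7 (chr18:48919853-48952052, minus strand), the inhibitory SMAD that blocks the receptor and is itself a target of the pathway, was at 48.1 and 61.7 CPM in shCtrl replicates 1 and 2. In shPML replicates 1 and 2 it was at 87.9 and 120 CPM, above both controls. SMAD7 rose by 0.92 on the log2 scale (SE 0.11, edgeR adjusted p = 7.7e-10), with a log2 ratio of 0.87 in experiment 1 and 0.97 in experiment 2. It had the smallest adjusted p of the 10 genes. Both shPML libraries were above both shCtrl libraries for 6 of the 10 genes and below them for 1, against 23.1% and 24.9% of all genes tested. TGFB2, which passed the filter only through its shPML libraries, is among the 6.

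The other genes of the pathway were read from lists of 90 genes in all, of which 77 were tested, 16 (20.8%) were called higher and 14 (18.2%) lower, against 8.57% and 10.5% of all genes. Without the block, edgeR called 1 of them higher and 1 lower, so the counts of each list below also rest on the pairing. Their median log2 fold change was 0.06, against 0.00 over all genes. The lists were written with earlier results of these data known, so the shares called may partly reflect which genes were listed. ENG, among the 16 called higher, was kept by the filter on low counts only through its shPML libraries. The largest share of higher calls was among genes of TGF-beta latency and activation. Of 14 such genes 10 were tested, and 6 of the 10 rose and 0 fell, with a median of 0.61. LTBP3, which tethers the latent ligand in the matrix, went from 25.1 and 30.7 CPM in shCtrl to 67.3 and 160 CPM in shPML, a log2 fold change of 1.90 (SE 0.14, edgeR adjusted p = 4.6e-18). BMP1, a protease that cleaves latent TGF-beta-binding protein, rose by 1.04 (SE 0.10, edgeR adjusted p = 1.8e-12) on the log2 scale. ITGAV, the integrin chain shared by the receptors that release active ligand, rose by 0.89 (edgeR adjusted p = 3.4e-11), from 219 and 212 CPM to 399 and 399 CPM. ITGB8, a beta chain that pairs with ITGAV, rose by 0.76 (edgeR adjusted p = 1.6e-08). Each of these 4 genes also rose past a log2 ratio of 0.5 in experiment 1 alone, with 1.42 for LTBP3, 1.12 for BMP1, 0.86 for ITGAV and 0.72 for ITGB8. Their calls used experiment 1 as well, so this is not a separate test. LTBP4 and LTBP2 made up the 6, and the remaining 4 tested genes were not called. The groups overlapped for LTBP4, at 31.9 and 56.5 CPM in shCtrl replicates 1 and 2 and 45.3 and 90.1 CPM in shPML replicates 1 and 2. LTBP2 had a log2 ratio of 0.36 in experiment 1 and 0.92 in experiment 2.

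**Figure D4:**
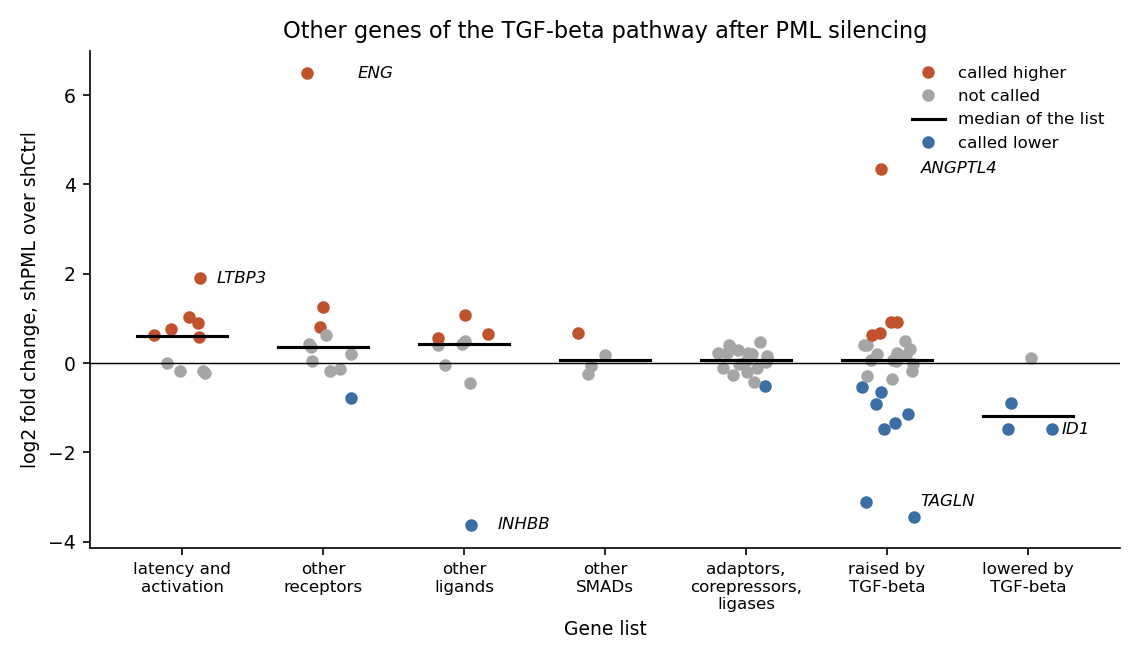
log2 fold change of shPML over shCtrl for each tested gene (points) of 7 pathway lists, coloured by whether it was called higher or lower, with the median of each list as a black bar. The medians run from -1.19 for the genes known to be lowered by TGF-beta to 0.61 for latency and activation.

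Of 12 other receptors of the superfamily 11 were tested, and 3 (27.3%) rose and 1 (9.09%) fell, with a median of 0.37. ENG, or endoglin, a co-receptor of endothelial cells and macrophages, had 2 and 6 counts in shCtrl replicates 1 and 2, and 45 and 609 counts in shPML replicates 1 and 2. Like TGFB2 it was kept by the filter on low counts only through its shPML libraries, which partly sets its place among the 3 that rose, and its p is not given for that reason. Its ratio was 17.0 in experiment 1 (95% counting interval 4.44 to 145) and 133 in experiment 2 (60.7 to 364), so most of its level lay in the library with monocyte and macrophage RNA, and the part of that RNA in it was not tested. ACVRL1, the type I receptor that binds TGF-beta and BMP9 with endoglin, rose by 1.26 on the log2 scale (SE 0.22, edgeR adjusted p = 6.4e-06), from 4.79 and 3.14 CPM to 9.95 and 8.77 CPM. ACVR2B, an activin receptor, rose by 0.80 (edgeR adjusted p = 1.1e-05). BMPR2, the type II receptor for bone morphogenetic proteins (BMP), fell by 0.79 (SE 0.11, edgeR adjusted p = 5.1e-08), from 84.0 and 98.1 CPM to 47.6 and 57.6 CPM.

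Of 12 other ligands 9 were tested, and 3 (33.3%) rose and 1 (11.1%) fell, with a median of 0.42. The called genes encode activin and inhibin subunits and a growth differentiation factor. INHBB, the activin B subunit, fell by 3.63 on the log2 scale (SE 0.19, edgeR adjusted p = 7.4e-24), from 15.0 and 32.1 CPM in shCtrl to 1.48 and 2.04 CPM in shPML. INHBA, the activin A subunit, rose by 0.64 (SE 0.10, edgeR adjusted p = 2.9e-07), from 196 and 213 CPM to 311 and 325 CPM. The subunits of activin A and activin B thus moved in opposite directions, each in both experiments. INHBE rose by 1.08 (edgeR adjusted p = 1.6e-07) and GDF11 by 0.57 (edgeR adjusted p = 0.00026). INHBE also shares 430 of its exonic bases with a gene on the other strand that had 3 to 32 counts.

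Of the 4 other SMADs, SMAD6 was called. SMAD6, the inhibitory SMAD of the BMP branch, was at 2.96 and 6.53 CPM in shCtrl replicates 1 and 2 and at 4.07 and 12.1 CPM in shPML replicates 1 and 2. The groups overlapped, and the log2 fold change of 0.68 (SE 0.23, edgeR adjusted p = 0.0179) came with a DESeq2 adjusted p of 0.0985 and a log2 ratio of 0.46 in experiment 1. SMAD1, SMAD5 and SMAD9, which carry BMP signals, had log2 fold changes of 0.18, -0.06 and -0.25 and were not called. Their log2 ratios in experiment 1 were 0.30, -0.08 and -0.52, and that of SMAD9 was 0.03 in experiment 2.

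Of 18 adaptors, corepressors, ubiquitin ligases and phosphatases, 18 were tested, 0 rose and 1 fell, with a median of 0.07. ZFYVE9, or SARA, which brings SMAD2 and SMAD3 to the receptor, was at 46.7 and 42.6 CPM in shCtrl and at 55.6 and 46.6 CPM in shPML, a log2 fold change of 0.19 (edgeR adjusted p = 0.23), with 0.25 in experiment 1. TGIF1, a corepressor, was at 77.5 and 72.1 CPM in shCtrl and at 59.9 and 52.4 CPM in shPML. Its log2 fold change of -0.42 (SE 0.11, edgeR adjusted p = 0.0031) passed the p threshold and not the fold threshold, and was -0.37 in experiment 1. SKI, a corepressor of SMAD complexes, was called at -0.51 (SE 0.12, edgeR adjusted p = 0.00046), at the edge of the fold threshold. With DESeq2 and the block, RLE normalization or a filter of at least 10 counts in every library it was between -0.499 and -0.498, just short of 0.5, with adjusted p (DESeq2 or edgeR) from 0.00027 to 0.0036.

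Genes known to be raised by TGF-beta moved in both directions. Of 32 such genes 27 were tested, 5 (18.5%) rose, SMAD7 among them, and 8 (29.6%) fell, with a median of 0.06. ANGPTL4, a lipoprotein lipase inhibitor that hypoxia and PPAR factors also induce, was at 13.7 and 6.33 CPM in shCtrl and at 184 and 216 CPM in shPML, a log2 fold change of 4.35 (SE 0.16, edgeR adjusted p = 4.0e-31). JUNB, an AP-1 subunit and early target, went from 59.2 and 180 CPM in shCtrl to 98.1 and 387 CPM in shPML. The groups overlapped. JUNB rose by 0.92 (edgeR adjusted p = 1.0e-10), with a log2 ratio of 0.73 in experiment 1 and 1.10 in experiment 2. CDKN1A, the p21 inhibitor of cyclin-dependent kinases and a p53 target, rose by 0.66 (edgeR adjusted p = 7.0e-07), with 0.34 in experiment 1 and 0.99 in experiment 2, and DESeq2 with the block did not call it, at an adjusted p of 0.129.

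The genes that fell included the smooth muscle genes CNN1 and TAGLN. TAGLN, an actin-binding protein, went from 160 and 209 CPM in shCtrl to 21.4 and 20.7 CPM in shPML, a log2 fold change of -3.11 (SE 0.12, edgeR adjusted p = 9.0e-30). CNN1, or calponin, fell by 3.46 (SE 0.27, edgeR adjusted p = 2.5e-16), from 7.17 and 15.9 CPM to 0.921 and 0.946 CPM. LMCD1, a cofactor of muscle genes, fell by 1.48 (edgeR adjusted p = 2.4e-13), and the cytokine IL11 fell by 1.35 (edgeR adjusted p = 1.1e-09). TAGLN overlaps PCSK7 on the other strand by 442 exonic bases, and the strand setting of the counting is not given in the sources used here.

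Genes known to be lowered by TGF-beta in epithelial cells were ID1, ID2, ID3 and MYC, of which 3 fell, with a median of -1.19. The ID genes encode inhibitors of DNA binding and are also the classical targets raised by BMP. ID1 was at 45.5 and 117 CPM in shCtrl replicates 1 and 2 and at 16.8 and 40.2 CPM in shPML replicates 1 and 2, a log2 fold change of -1.49 (SE 0.12, edgeR adjusted p = 6.9e-16). ID3 fell by 1.49 (SE 0.11, edgeR adjusted p = 2.4e-17) and ID2 by 0.90 (SE 0.13, edgeR adjusted p = 6.7e-08). Their log2 ratios in experiment 1 were -1.44, -1.50 and -0.92, as large as in experiment 2. MYC had a log2 fold change of 0.12 (edgeR adjusted p = 0.36), with 0.08 in experiment 2 and 0.165 in experiment 1.

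**Figure D5:**
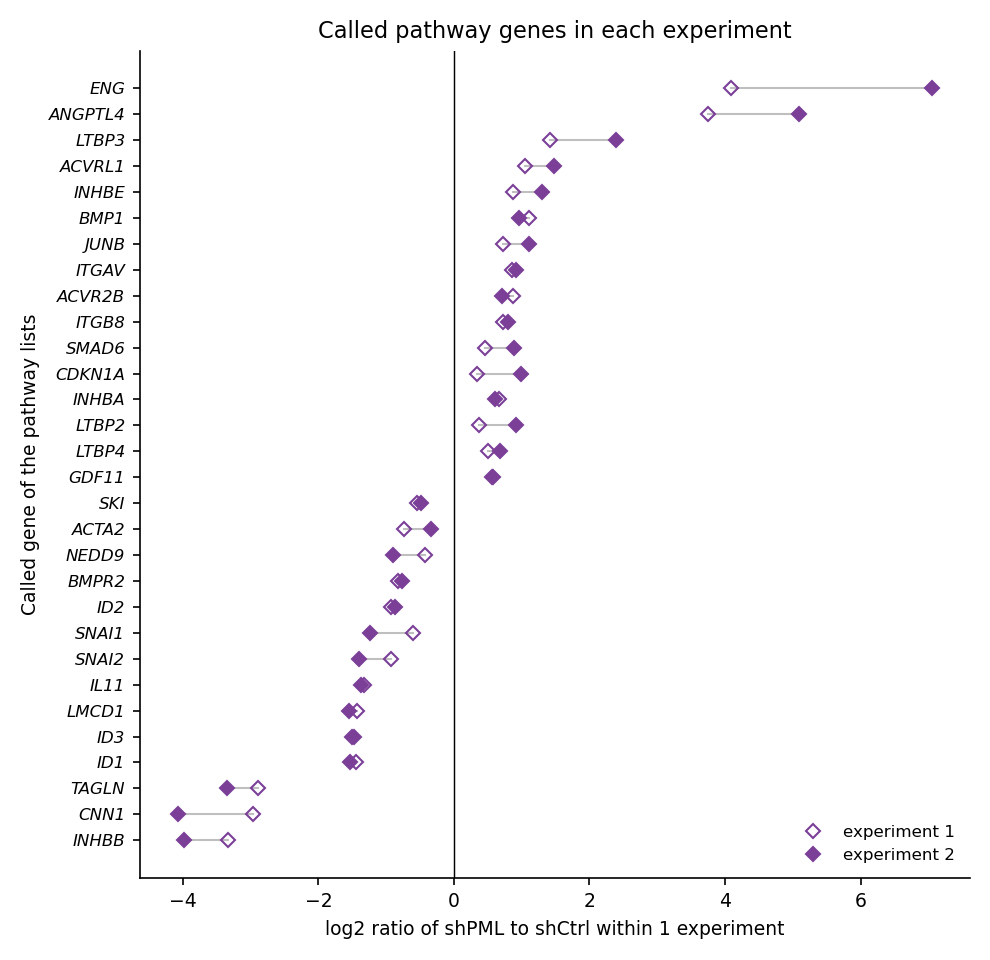
log2 ratio of shPML to shCtrl within experiment 1 (open diamonds) and experiment 2 (filled diamonds) for each called gene of the pathway lists. All 30 genes lie on the same side of 0 in both experiments, which the calls favour, since they were made from these same ratios. ENG has the widest gap, from 4.09 to 7.05.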

How the data were processed

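RNA of RCC4 cells was measured in 4 libraries. The authors prepared stranded mRNA libraries, trimmed the reads with Trimmomatic 0.39, aligned them with STAR and counted them on genes of GRCh38 with featureCounts 1.6.4, per the submitters' processing notes and the study's methods. The strand setting is not given in the sources used here. What the authors deposited are counts of reads per gene, not normalized. The unnumbered shCtrl and shPML columns were taken as replicate 1, since the other column of each carries the number 2.

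The analysis used edgeR 4.0.16 and DESeq2 1.42.0 in R 4.3.3, and Python 3.11.15. Genes were kept with filterByExpr (16516), normalized by TMM and tested with edgeR's quasi-likelihood test, the replicate number as a block, with Benjamini-Hochberg adjustment over all of them. The study's thresholds, 0.05 for the adjusted p and 0.5 for the absolute log2 fold change, were used to call genes. The pairing comes from the study's account of 2 infections. Deviations of same-numbered libraries correlated at 0.546 across genes, which are not independent, the common dispersion was 0.0137 with the block and 0.0813 without, and 1 residual degree of freedom was left. Nothing says more of how separate the cultures were, so p-values speak for these libraries only. The p-values of the main test rest on how far the within-experiment ratios disagree, with a dispersion partly shared across genes.

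Alternatives were no block, DESeq2, RLE normalization, no filter, at least 10 counts in every library, other fold thresholds, and each library left out. Depth was 27781193 to 69870617 counts per library, and ratios have exact 95% binomial intervals. The members, lists and tests were chosen with earlier results of these data known. Named genes were all 10 members, up to 4 called genes in each direction from each list with the same direction in both experiments, ZFYVE9, TGIF1, the other SMADs and PML. The macrophage markers and the comparison of experiments were chosen after the counts were seen. Promoter windows are from RefSeq. The fits were tested on simulated data. Some genes of the lists are not reported here as single results.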

Additional observations from a re-analysis of the deposited data

How the results depend on the processing

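With 4 libraries and 1 residual degree of freedom, edgeR called any of the 10 TGF-beta genes only where the libraries were paired by experiment. Without the block, edgeR called 13 genes higher and 55 lower (smallest adjusted p 0.0484, 2958 genes at an unadjusted p under 0.05), 0 of the 10 TGF-beta genes in either direction, and 1 pathway list gene each way, and PML was at -0.69 (adjusted p = 0.32). DESeq2 without the block called 577 genes higher and 898 lower, 2 of the 10 TGF-beta genes higher and 0 lower, and 9 list genes higher, with PML at -0.67 (adjusted p = 0.22). DESeq2 with the block called 2 of the 10 higher. Without a fold threshold 2391 genes were called higher. With a fold threshold of 1, 550 genes were called higher and 646 lower, 0 of the 10 TGF-beta genes lower, and 6 list genes higher and 8 lower. RLE normalization and no filter each left the calls of the 10 at 4 higher and 1 lower. At least 10 counts in every library removed TGFB2 and, among the named list genes, ENG from the test and gave 3 higher and 1 lower.

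Leaving out 1 library leaves no residual with the block, so these edgeR fits have no block and assume that the lone library varies like the other group. They called 0 to 187 genes higher and 0 to 61 lower, 0 of the 10 TGF-beta genes in either direction, 0 to 3 list genes higher and 0 to 1 lower, and put PML between -1.06 and -0.395 (-0.92 and -0.395 without shCtrl replicates 1 and 2). Directions turned for TGFB1 (-0.434 without shCtrl replicate 1, -0.859 without shPML replicate 2), SMAD4 (-0.118 and -0.020 without the same libraries), SMAD5 (0.039 without shCtrl replicate 2, 0.054 without shPML replicate 1), SMAD9 (0.132 without shPML replicate 1), SMAD6 and JUNB (-0.213 and -0.285 without shPML replicate 2) and SKI (0.180 without shCtrl replicate 2). The cause was not tested. Depth limits TGFB2, with 2 and 6 counts in the controls.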

Other observations

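shPML replicate 2 held 138 genes above 2 CPM that were below 0.2 CPM in each of the other 3 libraries, and each of those libraries held 0 such genes. CD14 was at 42.8 CPM and PTPRC at 12.6 CPM there. The endothelial marker PECAM1 was at 4.11 CPM and CDH5 at 0. These genes were chosen after their values were seen.

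Several pathway genes outside the test were found mainly in that library. NRROS, which holds latent TGF-beta on microglia and macrophages, had 42 counts in it, and 2, 7 and 0 in shCtrl replicates 1 and 2 and shPML replicate 1. CDKN2B, the p15 inhibitor of cyclin-dependent kinases and a known TGF-beta target, had 26 counts in it, or 0.946 CPM. In the other 3 libraries CDKN2B had 0 counts, which allows up to 0.0419 to 0.0833 CPM for counting error. PDGFB had 21 counts in it and 2, 3 and 4 in the others. The part of the monocyte and macrophage RNA in these values was not tested.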
